A study of Homo sapiens with 3 samples.

Results

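The genes of the siRNA and microRNA machinery described here are DROSHA, DGCR8, XPO5, DICER1, TARBP2, PRKRA, AGO1, AGO2, AGO3 and AGO4. They were chosen by name, and all 10 were found once each among the 58735 genes of the deposited count table. The measurements are counts of sequenced poly(A) RNA in 3 libraries of RPE-1, an established human line that telomerase made immortal and that derives from the pigment epithelium of the retina. The derivative used carried GFP-tagged Cetn2, which marks centrioles, and a PLK4 gene under rtTA control that responds to doxycycline. All 3 libraries came from cells transfected with a scramble siRNA without induction of PLK4, so they form 1 group, and no comparison between conditions can be made from them. Every library had received an siRNA, itself of the kind of RNA that the AGO proteins hold, and there was no untransfected library to compare with. The labels do not state whether separate cultures were used or whether the line is 1 clone, so the p-values below reflect the spread among these 3 samples alone, and that spread may be technical.

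MicroRNAs are made in steps. In the nucleus the RNase III enzyme DROSHA and its RNA-binding partner DGCR8, together called the Microprocessor, cut hairpins out of primary transcripts. XPO5 carries the hairpins to the cytoplasm, where DICER1 removes the loop with the help of the double-stranded RNA binding proteins TARBP2 and PRKRA. One strand is then held by an Argonaute protein (AGO1 to AGO4), which pairs it with target mRNAs. Of the Argonautes AGO2 is the main one that can cut a target. A short siRNA duplex given from outside can enter the pathway at the Argonaute step.

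The libraries held 49279692, 60040029 and 46625774 counts. Levels are given as CPM, library-scaled counts (by TMM factors), within a gene. Genes are compared with each other by RPKM, which is CPM per kb of exon, with all annotated exons of the gene merged. Of the fixed markers, those of mesenchyme were detected (CPM of at least 1 in every library) for 4 of 4 genes and those of epithelium for 2 of 4, KRT8 and KRT18. Of 9 pigment epithelium markers 4 were detected, while RPE65 had 8, 6 and 0 counts and TYR and DCT had none. Of the markers of other cells, PTPRC of blood (0.225 RPKM) and SNAP25 of neurons (2.09 RPKM) were detected and none of the 3 liver markers was. Library 1 stood apart: among genes with a spread beyond counting error, described below, it was the farthest from the others in 66.2%. The edgeR common biological coefficient of variation was 0.135 with it and 0.0603 without it. Leaving out library 2 or library 3 was not tried for that estimate.

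All 10 genes were detected, at moderate levels. Their median was 5.00 RPKM, beside 6.09 RPKM for the 11508 detected protein-coding genes. In counts without length their median was 46.1 CPM against 33.0 CPM, and the union of exons had a median of 8151 bp in the 10 genes against 5303.5 bp. The mean RPKM values spanned 11.3-fold, from AGO3 up to DROSHA, which exceeded TARBP2 in library 1 alone. Summed over the 10 genes the libraries held 472, 464 and 464 CPM.

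**Figure D1:**
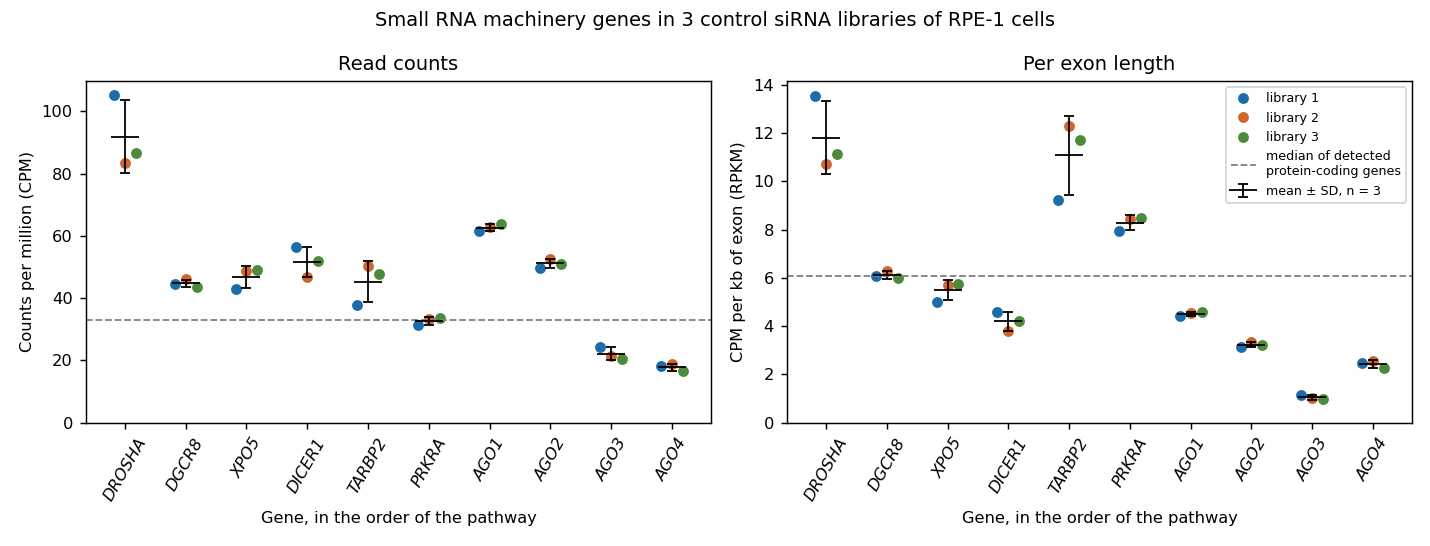
Level of each gene in the 3 libraries, in CPM on the left and in RPKM on the right, with the mean and SD (n = 3). DROSHA had the highest mean in both panels, though TARBP2 exceeded it in RPKM in libraries 2 and 3, while AGO1 ranked second in CPM and sixth in RPKM. The dashed line is the median of detected protein-coding genes.

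DROSHA, the nuclear RNase III, was the highest of the 10 genes in counts. Per exon length its mean was the highest too, but TARBP2 exceeded it in libraries 2 and 3. DROSHA (ENSG00000113360, hg38 chromosome 5, 31400497 to 31532196, minus strand) stood at 105, 83.5 and 86.7 CPM in libraries 1, 2 and 3. Its mean was 91.8 ± 11.8 CPM (SD, n = 3) or 11.8 ± 1.51 RPKM, above 69.4% of detected protein-coding genes. Library 1 was 1.24-fold above the mean of the other libraries, which differed from each other by 1.04-fold. DGCR8 (ENSG00000128191, chromosome 22, 20080232 to 20111877, plus strand), which recognises the hairpins, stood at 44.4, 46.0 and 43.7 CPM. Its mean of 44.7 ± 1.19 CPM or 6.11 ± 0.162 RPKM lay close to the middle of detected genes, above 50.1% of them. The highest and lowest libraries of DGCR8 were only 1.05-fold apart.

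DROSHA exceeded DGCR8 per exon length by 2.23, 1.71 and 1.86-fold in libraries 1, 2 and 3. The mean log2 ratio was 0.94 ± 0.20 (SD), with DROSHA higher in 3 of 3 libraries. With 3 libraries the two-sided exact sign-flip test cannot go below p = 0.25, which was its value for each of the 7 gene pairs fixed for comparison, before and after adjustment over them. Per coding length the log2 ratio of DROSHA to DGCR8 was 0.20 instead. Coding sequence makes up 2319 of the 7315 bp of exon in DGCR8 and 4122 of 7780 bp in DROSHA.

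Some of the machinery's own genes contain hairpins that it processes, and these are shown because they lie within the exons whose reads were counted. The DGCR8 gene holds MIR3618 and MIR1306 in its exons on the same strand. The mature sequences, from RefSeq (GRCh38.p14), are given 5′ to 3′ with the seed, bases 2 to 8, in capitals. 
hsa-miR-3618: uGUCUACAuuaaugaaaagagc
hsa-miR-1306-5p: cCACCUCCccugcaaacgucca
hsa-miR-1306-3p: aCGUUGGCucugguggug
The first lies at chr22:20085797-20085818, within an exon of 3 of 3 transcripts that span it, and there in the untranslated part. The arms of miR-1306 lie at chr22:20086072-20086093 and chr22:20086112-20086129, within an exon of 5 of 5 spanning transcripts and within the coding sequence of 4 of them. No 2 of these 3 share a seed, and none of the seeds occurs in another of the 2370 mature human miRNAs of that table. Both hairpin genes have rows of their own in the count table, with 0 counts in each library. By counting error alone, the upper limit set by 0 counts is 3 counts, which equals 0.0618, 0.0494 and 0.0641 CPM in libraries 1, 2 and 3. Both hairpins lie within exons of DGCR8, and the rule for reads shared between genes is not given. The limit therefore holds only for reads assigned to these rows, and sets no bound on RNA from these stretches. Poly(A) selection does not retain the short mature forms, so these rows say nothing of their abundance.

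The hairpins take up little of DGCR8. MIR3618 and MIR1306 share 88 and 85 bp with its exons, 2.37% of the 7315 bp together. On the opposite strand the antisense gene AC006547.2 shares 526 bp (7.19%) and had 0, 3 and 6 counts. How reads in such shared stretches were assigned is not given in the sources used here.

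XPO5, the exportin that carries the cut hairpins to the cytoplasm, was lowest in library 1. XPO5 (ENSG00000124571, chromosome 6, 43522330 to 43576075, minus strand) stood at 42.8, 48.7 and 49.0 CPM, so that libraries 2 and 3 differed by only 1.01-fold. The mean was 46.8 ± 3.50 CPM or 5.50 ± 0.411 RPKM, above 46.9% of detected protein-coding genes. Of its exon length 4.08% is shared with POLR1C on the opposite strand.

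DICER1, the cytoplasmic RNase III, stood lower per exon length than both of its RNA-binding partners. In mean CPM, without length, it stood above both, though TARBP2 was higher in library 2. DICER1 (ENSG00000100697, chromosome 14, 95086228 to 95158010, minus strand) had 56.5, 46.7 and 51.8 CPM, with a mean of 51.7 ± 4.87 CPM or 4.203 ± 0.396 RPKM. Library 1 was highest and library 2 lowest, 1.21-fold apart. TARBP2 (ENSG00000139546, chromosome 12, 53500921 to 53506431, plus strand) had 37.8, 50.3 and 47.9 CPM, with a mean of 45.3 ± 6.66 CPM or 11.1 ± 1.63 RPKM. It was lowest in library 1, at 0.769 of the mean of the other libraries. PRKRA (ENSG00000180228, chromosome 2, 178431414 to 178451512, minus strand), which also activates the kinase PKR, had 31.3, 33.3 and 33.5 CPM. Its mean was 32.7 ± 1.22 CPM or 8.30 ± 0.310 RPKM, and its libraries differed by at most 1.07-fold.

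DICER1 carries a microRNA of its own, MIR3173, inside an intron of all 6 transcripts that span it, which is shown as a contrast to the exonic hairpins of DGCR8. It comes from the minus strand, with its arms at chr14:95137961-95137982 and chr14:95137923-95137944. 
hsa-miR-3173-5p: uGCCCUGCcuguuuucuccuuu
hsa-miR-3173-3p: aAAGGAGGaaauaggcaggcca
The seed of the first is shared by 2 mature human miRNAs of the RefSeq table and that of the second by 3, these included. On the opposite strand DICER1-AS1 shares 80 bp (0.651%) with the exons of DICER1 and had 11, 16 and 13 counts.

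TARBP2 exceeded PRKRA, the other dsRNA-binding partner of Dicer, by 1.163, 1.46 and 1.38-fold per exon length. The mean log2 ratio was 0.41 ± 0.17 (SD), with TARBP2 higher in 3 of 3 libraries. Per coding length it was 0.17, and TARBP2 was then higher in 2 of 3. The coding sequences of the pair are 61.4% identical over 920 aligned bases, with no identical run above 12 bases. PRKRA shares 85 bp of exon with the antisense gene PRKRA-AS1, which had 715, 885 and 713 counts, and 132 bp with PJVK, also on the opposite strand. Reads of PRKRA and of these genes cannot be told apart there if the counting ignored strand.

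Of the RNase III pair the nuclear enzyme was the higher. DICER1 stood at 0.339, 0.354 and 0.378 of DROSHA per exon length, a mean log2 ratio of -1.49 ± 0.08 (SD), lower in 3 of 3 libraries. The ratio kept its sign with every length tried, from -1.79 per longest coding transcript to -0.83 in counts alone.

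AGO1 was the highest of the Argonautes and AGO2 came second, by counts and per exon length. AGO1 (ENSG00000092847, chromosome 1, 35869808 to 35930528, plus strand) had 61.4, 62.8 and 63.7 CPM, a mean of 62.7 ± 1.15 CPM or 4.51 ± 0.0828 RPKM. Its libraries lay within 1.04-fold of each other, the narrowest spread of the 10 genes. AGO2 (ENSG00000123908, chromosome 8, 140520156 to 140635619, minus strand), the slicing Argonaute, had 49.8, 52.7 and 51.0 CPM, a mean of 51.2 ± 1.42 CPM or 3.23 ± 0.0900 RPKM. AGO3 (ENSG00000126070, chromosome 1, 35930718 to 36072500, plus strand) had 24.4, 21.4 and 20.4 CPM, a mean of 22.1 ± 2.08 CPM or 1.04 ± 0.0984 RPKM, above only 12.2% of detected protein-coding genes. AGO4 (ENSG00000134698, chromosome 1, 35808172 to 35857890, plus strand) had 18.03, 18.7 and 16.5 CPM, a mean of 17.7 ± 1.14 CPM or 2.44 ± 0.156 RPKM. The summed Argonaute level was 154, 156 and 152 CPM, so that the libraries differed in sum by 1.03-fold at most.

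Per exon length AGO1 made up 40.2 ± 1.17% (SD, n = 3) of the 4 Argonaute genes, AGO2 28.8 ± 0.614%, AGO4 21.7 ± 1.05% and AGO3 9.30 ± 0.869%. In counts without length the shares were 40.8 ± 1.09% for AGO1, 33.3 ± 0.778% for AGO2, 14.4 ± 1.32% for AGO3 and 11.5 ± 0.598% for AGO4. The places of AGO3 and AGO4 were thus exchanged. AGO3 has 21157 bp of annotated exon against 7267 bp for AGO4, while their coding sequences are nearly equal (2609 and 2583 bp).

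**Figure D2:**
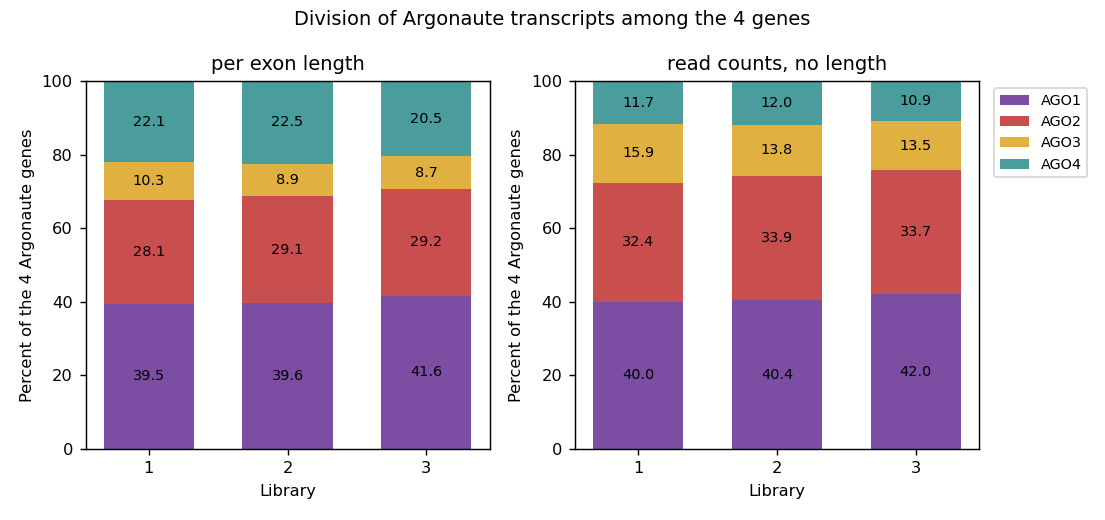
Share of each Argonaute gene in the summed level of the 4 genes, in percent, for each library, per exon length on the left and in counts on the right. AGO1 held 39.5 to 41.6% per exon length and 39.96 to 42.02% of counts. AGO3 and AGO4 exchanged places between the panels.

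AGO2 stood at 0.711, 0.735 and 0.703 of AGO1 per exon length (mean log2 ratio -0.48 ± 0.03 SD), lower in 3 of 3 libraries. It was also lower than AGO1 in 3 of 3 libraries per longest coding transcript (-0.38), per coding length (-0.25) and in counts (-0.29). AGO2 exceeded AGO3 by 2.72, 3.28 and 3.34-fold (mean log2 ratio 1.63 ± 0.16 SD). AGO2 exceeded AGO4 by 1.27, 1.29 and 1.42-fold per exon length (mean log2 ratio 0.41 ± 0.09 SD), and by 2.89-fold in counts. DICER1 exceeded AGO2 by 1.46, 1.14 and 1.31-fold per exon length (mean log2 ratio 0.37 ± 0.18 SD). In counts DICER1 and AGO2 were nearly equal (log2 ratio 0.01, DICER1 higher in 2 of 3 libraries), and per coding length the order was reversed (-1.16), so these data do not set it.

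**Figure D3:**
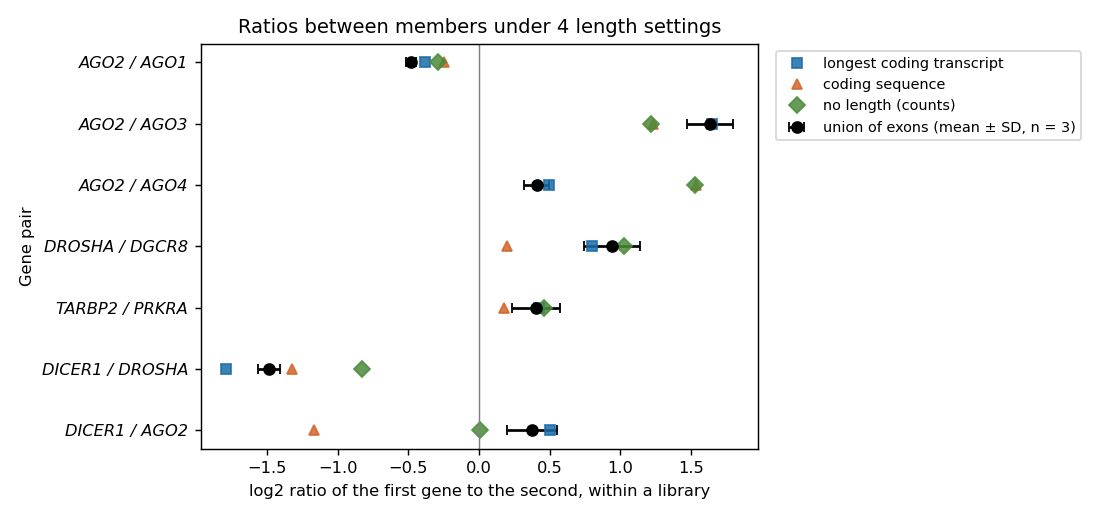
Log2 ratio of the first gene of each pair to the second, taken within a library. Black points are means over the 3 libraries per exon length with the SD, and the other marks use another length or none. AGO2 / AGO1 and DICER1 / DROSHA lay below 0 under every length, and DICER1 / AGO2 lay on both sides.

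AGO4, AGO1 and AGO3 lie in this order on the plus strand of chromosome 1. AGO4 ends 11917 bp before AGO1, and AGO1 ends 189 bp before AGO3. The coding sequences of the 4 genes were 71.2 to 75.9% identical in pairs. Their longest identical run, 32 bases, joins AGO1 and AGO3. The 60 bases around that run are shown, with AGO4 at the same place, as the longest stretch that 2 of the genes have in common. The windows lie in exon 12 of each gene (GENCODE 29, GRCh38), at chr1:35906988-35907047 for AGO1, chr1:36027167-36027226 for AGO3 and chr1:35834043-35834102 for AGO4. Capitals mark bases unlike AGO1. 
AGO1: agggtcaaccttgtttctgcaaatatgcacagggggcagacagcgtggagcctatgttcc
AGO3: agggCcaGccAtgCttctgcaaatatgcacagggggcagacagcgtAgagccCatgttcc
AGO4: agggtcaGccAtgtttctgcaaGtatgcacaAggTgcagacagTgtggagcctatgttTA
Here AGO3 differed from AGO1 at 6 of 60 bases and AGO4 at 8. No window of 50 bases in the longest coding transcript of any Argonaute gene occurred, on either strand, in an annotated transcript of another Argonaute gene. The read length is not given in the sources used here.

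The order of the 10 genes per exon length was DROSHA, TARBP2, PRKRA, DGCR8, XPO5, AGO1, DICER1, AGO2, AGO4 and AGO3. Of the 9 neighbours in this order, 7 kept their places in 3 of 3 libraries. DROSHA and TARBP2 could not be separated, since DROSHA was higher in 1 of 3 libraries (log2 ratio 0.09 ± 0.40 SD) and without library 1 the means were 10.9 RPKM for DROSHA and 12.01 RPKM for TARBP2. Nor could AGO1 and DICER1, of which AGO1 was higher in 2 of 3 (0.11 ± 0.15 SD). With coding length in place of exon length TARBP2 led, at 38.3 CPM per kb, followed by PRKRA at 33.6, AGO1 at 23.6 and DROSHA at 22.3, with AGO4 last at 6.86. The high place of TARBP2 and PRKRA per length goes with their short transcripts, of which the longest coding ones have 1867 and 1826 bp, while AGO3 has 19687 bp.

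Of the 10 genes 6 differed between libraries by more than counting error, beside 68.6% of the 16293 genes tested and 77.5% of detected protein-coding genes. A chi-square test set the 3 counts of each gene against the scaled library sizes, with Benjamini-Hochberg adjustment over all tested genes. DROSHA (adjusted p = 1.92e-33), TARBP2 (1.32e-21), DICER1 (5.47e-11), XPO5 (6.20e-06), AGO3 (0.000166) and AGO4 (0.0366) passed it. DGCR8 (adjusted p = 0.221), PRKRA (0.137), AGO1 (0.412) and AGO2 (0.148) did not. The share of the 10 genes is thus no higher than that over all genes at this setting. With unscaled totals it was 8 of 10 beside 69.3%, and without a count minimum 5 of 10 beside 48.0%. The test compares the spread with counting error alone, which is smaller than biological error. With a further coefficient of variation of 0.05 allowed for every gene, DROSHA and TARBP2 were the 2 called, beside 32.7% of tested genes and 31% of detected protein-coding genes. That allowance is below the edgeR estimates for genes at their levels, 0.101 for DROSHA and 0.108 for TARBP2. The edgeR estimates for DROSHA and TARBP2 themselves were 0.111 and 0.117. The method draws such estimates toward those for genes at the same level, so their closeness shows nothing of these genes. Without that, the coefficient of variation beyond counting error was 12.7% for DROSHA and 14.6% for TARBP2.

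**Figure D4:**
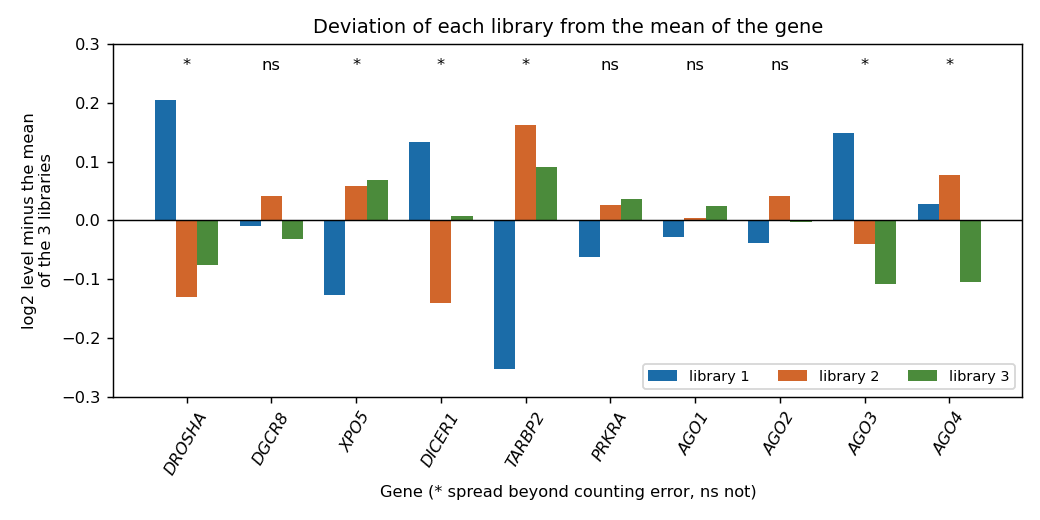
Log2 level of each gene in each library minus the mean of its 3 libraries. Stars mark genes whose spread exceeded counting error. Library 1 was high for DROSHA (0.21) and low for TARBP2 (-0.25), while DGCR8, AGO1 and AGO2 stayed within 0.05 of their means.

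The deviations in library 1 had no common sign. DROSHA stood 0.21 above its mean there on the log2 scale, while DGCR8 stood at -0.01. DICER1 stood at 0.13, TARBP2 at -0.25 and PRKRA at -0.06. Among the called genes, DROSHA, DICER1 and AGO3 were highest in library 1 (27.9% of all tested genes were called and highest there). TARBP2 and XPO5 were called and lowest in library 1, as were 33.4% of all tested genes. Over the 10 genes the median deviation was -0.02, 0.03 and 0.00 in libraries 1, 2 and 3, beside -0.03, 0.01 and 0.01 for detected protein-coding genes.

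Of the 10 genes 4 were called with library 1 the farthest from the others, beside 45.4% of tested genes. Library 2 was the farthest for DICER1 (13.4% of tested genes) and library 3 for AGO4 (9.86%). Among called genes alone, library 1 was the farthest in 4 of 6, beside 66.2% of all called genes. Without library 1 the spread of DROSHA (adjusted p = 0.176), TARBP2 (0.173), XPO5 (0.892) and AGO3 (0.439) no longer passed the chi-square test, while DICER1 and AGO4 still did, 2 of 10 beside 28.1% of tested genes. AGO4 was no longer called without library 2 (adjusted p = 0.104) or without library 3 (0.514). The median ratio of the highest to the lowest library was 1.14 in the 10 genes and 1.19 in detected protein-coding genes. The 1.33-fold of TARBP2 was wider than in 78.0% of the latter, and the 1.04-fold of AGO1 was wider than in 3.93%.

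The precision of a single library is shown by the highest and the lowest count. In library 1 DROSHA had 5112 counts, or 104 CPM without scaling, with an exact 95% Clopper-Pearson interval of 101 to 107. AGO4 in library 3, the lowest count of any of the 10 genes, had 770 counts, or 16.5 CPM without scaling, with an interval of 15.4 to 17.7. Without scaling this overlaps the interval of AGO4 in library 1 (16.6 to 18.97) but not that in library 2 (17.8 to 20.02), its highest library. The gap between 17.7 and 17.8 is narrow, and the intervals leave out the TMM factors (1.01 for library 2). It therefore does not separate libraries 2 and 3. Reads are not independent molecules, so such intervals and limits describe counting error alone.

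Proteins that help the Microprocessor, such as RNA helicases and splicing factors, had a median of 40.2 RPKM, beside 11.8 RPKM for DROSHA and 6.11 RPKM for DGCR8. All 13 listed cofactors were detected, and all 13 stood above the median of the 10 machinery genes. HNRNPA1, which binds certain hairpins and has many processed pseudogenes that can take its reads, was highest at 189 RPKM, and TARDBP was lowest at 12.9 RPKM. Of the 13 cofactors 12 differed between libraries, beside 68.6% of tested and 77.5% of detected protein-coding genes, and 7 were called and highest in library 1 (27.9% of tested genes). The chi-square test calls smaller spreads at higher counts, so shares of lists at unlike levels are not like for like. Median levels were 253 CPM for the cofactors, 156 CPM for the exportin list and 203 CPM for the loading chaperones, beside 33.0 CPM for detected protein-coding genes. With a coefficient of variation of 0.05 allowed, 3 of the 13 were called, beside 32.7% of tested genes. SAFB2 had the widest spread, 1.49-fold. Among the exportins and the genes of the Ran cycle, which powers XPO5, 10 of 10 were detected, and the median was 20.9 RPKM. RAN, the small GTPase itself, led at 116 RPKM and XPO4 was lowest at 3.09 RPKM. All 10 differed between libraries (68.6% of tested genes), 8 of them lowest in library 1 (33.4%), and 2 did with the further variation allowed (32.7%). XPOT, the tRNA exportin, had the widest spread (1.32-fold).

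Genes that act with the Argonautes at the target mRNA had a median of 4.04 RPKM, beside 1.04 to 4.51 RPKM for the Argonautes themselves. Of 14 such effectors 14 were detected. MOV10, a helicase bound to Argonautes, was highest at 17.9 RPKM. TNRC6C was lowest at 1.54 RPKM and also had the widest spread (1.48-fold), and it belongs to the GW182 scaffold family that links Argonautes to deadenylases. Of the 14 effectors 12 differed between libraries (68.6% of tested genes), 8 of them lowest in library 1 (33.4%), and 3 did with the further variation allowed (32.7%). Chaperones that help load Argonautes ran from HSP90AB1 (329 RPKM) down to FKBP5 (5.29 RPKM), around a median of 43.6 RPKM. All 9 were detected. Of these 8 differed between libraries by the chi-square test (68.6% of tested genes), and 0 did with the further variation allowed (32.7%). FKBP4 had the widest spread among them, 1.21-fold.

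Among genes that tail or degrade small RNAs, or block their maturation, 2 were at 0. Of 14 genes 12 were detected. All 12 differed between libraries (68.6% of tested genes), 8 of them highest in library 1 (27.9%), and 4 did with the further variation allowed (32.7%). SND1, a nuclease of edited and mature miRNAs, was highest at 39.3 RPKM, DIS3L2 was the lowest detected at 1.69 RPKM, and TENT4B had the widest spread (1.58-fold). LIN28A and LIN28B, whose proteins block maturation of let-7, had 0 counts in each library. Of the double-stranded RNA binding proteins 7 of 7 were detected and 5 differed between libraries, beside 68.6% of all tested genes. STAU1 was highest at 37.8 RPKM and STRBP lowest at 1.06 RPKM. EIF2AK2, which encodes the kinase PKR that PRKRA activates, had the widest spread and stood 1.52-fold higher in library 1 than in its lowest library, while PRKRA varied by 1.07-fold.

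The germline branch of the Argonaute family was little expressed. Of 12 listed piRNA genes only PLD6, which encodes a mitochondrial protein, was detected (4.47 RPKM). PIWIL1 and PIWIL3 had 0 counts in each library, PIWIL2 had 15, 9 and 7 counts and PIWIL4 had 5, 11 and 5. The 4 PIWIL genes were named here after their values were seen.

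**Figure D5:**
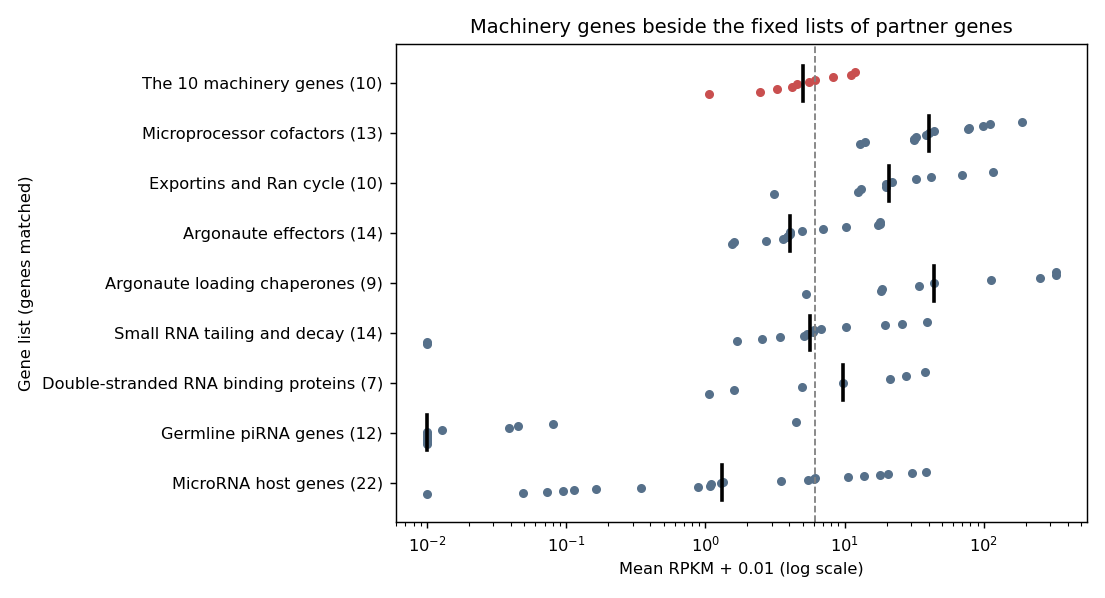
Mean RPKM of each gene of the machinery and of 8 lists of partner genes, on a log axis after adding 0.01, with the median of each list as a black bar. The 10 machinery genes ran from 1.04 to 11.8 RPKM. The medians of Microprocessor cofactors (40.2), loading chaperones (43.6) and exportins with the Ran cycle (20.9) lay above that range. Most germline genes lay at the left edge. The dashed line is the median of detected protein-coding genes.

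Host genes of microRNAs, the substrates of the pathway, spanned a wide range. Of 23 listed hosts 22 were matched and 15 were detected, and 14 of the 19 tested differed between libraries, beside 68.6% of all tested genes. MCM7, a replication helicase gene with 3 hairpins in an intron, was highest at 38.3 RPKM (168 ± 2.56 CPM, SD, n = 3), and DLEU2 was the lowest detected at 0.874 RPKM. MIR503HG, below detection with 24, 8 and 7 counts, had the widest spread among called hosts, 3.75-fold. MIR17HG, named after its values were seen, had 28, 17 and 11 counts. MCM7 and MIR17HG give microRNAs of the same seeds, which are shown to set the levels of the hosts beside what they encode. 
MCM7, hsa-miR-106b-5p: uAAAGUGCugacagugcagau
MCM7, hsa-miR-93-5p: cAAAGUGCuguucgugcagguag
MIR17HG, hsa-miR-17-5p: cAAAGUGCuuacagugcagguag
MIR17HG, hsa-miR-20a-5p: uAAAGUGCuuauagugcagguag
MCM7, hsa-miR-25-3p: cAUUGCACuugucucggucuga
MIR17HG, hsa-miR-92a-3p: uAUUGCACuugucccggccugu
The first 4 share the seed AAAGUGC, found in 8 mature human miRNAs of the table, and the last 2 the seed AUUGCAC, found in 6. They lie at chr7:100094043-100094063, chr7:100093815-100093837, chr13:91350618-91350640, chr13:91351072-91351094, chr7:100093571-100093592 and chr13:91351361-91351382 in the order shown, on the minus strand of chromosome 7 and the plus strand of chromosome 13. The counts are of spliced, polyadenylated host RNA, so they do not measure the microRNAs.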

How the data were processed

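Poly(A) RNA of 3 libraries was sequenced after preparation with the Nugen Universal Plus mRNA-seq kit, per the labels' protocols. The authors deposited whole-number counts per gene. Per the submitters' processing notes the tools were STAR 2.5.2a, featureCounts 1.6.2 and cutadapt 1.16, and the build hg38, with no settings, so the handling of strand and of reads with several matches is not given in the sources used here. A further 6 columns of per-sample counts were not used, because they match no sample described here. All 58735 gene IDs matched GENCODE 29, from which exon lengths and positions were taken.

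The table totals were scaled by TMM (edgeR 4.0.16, R 4.3.3; factors 0.985, 1.01 and 1.00) to give CPM, and CPM per kb of merged exons gave RPKM. A gene counted as detected if each library reached a CPM of 1. The spread test was a chi-square test with 2 degrees of freedom over the 16293 genes whose counts averaged 10 or more, adjusted by Benjamini-Hochberg with a threshold of 0.05. The data simulated to try it held planted fold changes and counting error, but no further spread between libraries. That trial therefore does not show how the test behaves under further spread. The test was used in place of a comparison of groups, since there is 1 group. Pair ratios were taken within a library after adding 0.5 counts. Alternatives were DESeq2 1.42.0 size factors, unscaled totals, other count minimums, pseudocounts and gene lengths, a further coefficient of variation, and leaving out each library. Genes of each partner list were named if highest or lowest by RPKM among those detected, widest in spread among those called, or below detection where 5 or fewer were. The 10 genes and the lists were chosen with earlier results of these data known. Genome sequence was not used, and sequences came from RefSeq and GENCODE transcripts.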

Additional observations from a re-analysis of the deposited data

How the results depend on the processing

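No paired analysis was possible because the samples form 1 group. Of the 10 genes, 2 to 6 passed the spread test across settings other than unscaled totals, beside 28.1% to 75.7% of tested genes. With unscaled totals 8 of 10 passed, beside 69.3% of tested genes. With a coefficient of variation of 0.05 allowed, 2 of the 10 genes passed, beside 32.7% of tested genes (5322). Leaving out 1 library at a time gave 2 to 5 of the 10 genes, the lowest without library 1. Beside these passed 28.1% to 60.6% of tested genes (4581 to 9992), also lowest without library 1. Unscaled totals added PRKRA (adjusted p = 0.0249) and AGO2 (0.0150) in the chi-square test, and without a count minimum AGO4 was lost (0.0506). The length used moved the levels most. The median of the 10 genes was 6.87 CPM per kb of longest coding transcript, 19.6 per kb of coding sequence and 46.1 CPM without length, against 5.00 RPKM. Per longest coding transcript, per coding sequence and without length, the log2 ratio of AGO2 to AGO1 was -0.38, -0.25 and -0.29, that of AGO2 to AGO4 0.50, 1.54 and 1.53, and that of DICER1 to DROSHA -1.79, -1.32 and -0.83. Per coding sequence and without length AGO2 to AGO3 was 1.23 and 1.22, and DICER1 to AGO2 was -1.16, a reversal, and 0.0099. Per coding sequence DROSHA to DGCR8 was 0.20 and TARBP2 to PRKRA 0.17. These shifts follow from the lengths divided by. DESeq2 size factors and a pseudocount of 5 counts changed none of these calls or directions. With 3 libraries of 1 condition, the spread between cultures could not be measured.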
